A study of Mus musculus with 2 samples.

Results

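Immunoglobulin variable (V) genes were followed in leukocytes of the pressure-overloaded mouse heart. They were taken as the genes of the transcriptome table whose symbols start with Ighv, Igkv or Iglv, which gave 46 of its 31192 genes: 10 heavy chain genes (Ighv), 33 kappa light chain genes (Igkv) and 3 lambda light chain genes (Iglv). The hearts came from mice with the inducible endothelial recombinase Cdh5-CreERT2 and the REFLEX reporter, which had received tamoxifen and undergone transverse aortic constriction, a surgical narrowing of the aorta. Cells were sorted by CD45, the surface protein of leukocytes, and by GFP, with which REFLEX marks interacting cells, into 4 fractions. All fractions went into a single pool, read as 1 transcriptome library beside 1 library of hashtags, and without replicates no test across animals was possible. Since no label links a hashtag to a fraction, sorted populations were not set against each other.

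An antibody chain is built by joining 1 V segment to downstream segments in the DNA of a developing B cell, and the joined gene is then transcribed together with a constant gene (Ighm and Ighd for the heavy chain, Igkc for kappa, Iglc1 to Iglc3 for lambda). Each B cell normally keeps 1 productive heavy chain and 1 productive light chain, a rule called allelic exclusion, and kappa is used by most mouse B cells. A transcript of a joined V gene is therefore a mark of the B lineage, and cells of other lineages are not known to join V segments productively.

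B cells were the kept cells with at least 50 CPM (counts scaled to 1000000 per cell) of Cd79a, the signalling partner of the B cell receptor, and 169 of 857 cells met this rule. The other leukocytes were the 664 kept cells with less Cd79a and any count of Ptprc, which encodes CD45. The median cell held 67914 estimated counts among B cells and 85011 among other leukocytes. Of the 169 B cells, 165 had at least 3 of 7 B cell markers at 50 CPM or more, and so did 0 of the 664 other leukocytes. Cd79a, which the rule itself used, is 1 of these 7 markers, so this contrast is partly set by the rule. The rule admitted 3 cells between 50 and 200 CPM, at 55.01, 64.0 and 64.8 CPM of Cd79a, and the next cell stood at 441 CPM. Those 3 cells lay in neutrophil-like, unnamed and monocyte-like clusters and held 0 V counts, and the cells just outside the limit stood at 44.9, 44.2 and 40.5 CPM with 1, 0 and 0 V counts. At least 3 listed markers of another lineage were at 50 CPM or more in some B cells. These were 10 cells for plasmacytoid dendritic cells, 9 for neutrophils, 5 for monocytes, 3 for T cells and 2 for macrophages. The part of these cells in the results was not tested. Not all the markers were low in B cells. In the plasmacytoid list Irf8 (344 CPM in B cells, 174 CPM in other leukocytes) and Tcf4 (132 and 48.3 CPM) were higher in B cells. Siglech, Bst2, Ccr9 and Cox6a2 were lower. Plac8 of the monocyte list stood at 1391 CPM in B cells and 1644 CPM in other leukocytes.

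The 46 genes are a small part of the mouse V repertoire. The RefSeq annotation of assembly GRCm38.p6 lists 183 Ighv, 162 Igkv and 3 Iglv genes and pseudogenes, and all 46 symbols of the table matched it. Every gene of the table was above 0 in at least 5 cells, 1363 genes stood at exactly that minimum, and 14 of the 46 V genes were found in 5 or 6 cells. V genes used by fewer cells are not analysed here, so lambda V genes were covered in full, kappa V genes in part and heavy chain V genes least. Among the genes not analysed here are Ighv11-2, Ighv12-3, Igkv14-126 and Igkv4-91, which are known from B-1 cells. All but 1 of the 46 genes are annotated as V genes by GENCODE, and Igkv4-77 is a pseudogene there. The 33 Igkv genes lay between places 18 and 158 of the 160 kappa V genes counted outward from Igkc.

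Close relatives among these genes can share reads, and the table divides such counts into fractions. In 29 of the 46 genes the nearest relative in the annotation was at least 95% identical over the coding bases, and 54.0% of their 263 values above 0 were whole numbers. In 9 genes with a nearest relative under 90% identical, 93.7% of 127 values were whole. The pairs shown here are the lambda genes Iglv1 and Iglv2, which share 96.9% of bases and differ at 11 positions, and Igkv10-96, the most used gene, with Igkv10-94, which share 95.4% and differ at 16 positions. Igkv20-101-2 is shown because its counts were spread unlike those of every other V gene, and its nearest relative is only 67.0% identical. Each line gives the last 300 coding bases, 5′ to 3′ on the coding strand, from the GENCODE M21 transcripts of GRCm38, with capitals for bases that differ from the paired gene. Iglv1 and Iglv2 are on chromosome 16 and the kappa genes on chromosome 6.
Iglv1: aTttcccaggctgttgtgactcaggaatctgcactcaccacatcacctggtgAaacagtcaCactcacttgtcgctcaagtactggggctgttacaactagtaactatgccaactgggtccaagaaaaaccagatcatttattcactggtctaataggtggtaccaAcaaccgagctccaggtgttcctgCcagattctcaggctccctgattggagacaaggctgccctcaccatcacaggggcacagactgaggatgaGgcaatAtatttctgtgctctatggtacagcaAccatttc
Iglv2: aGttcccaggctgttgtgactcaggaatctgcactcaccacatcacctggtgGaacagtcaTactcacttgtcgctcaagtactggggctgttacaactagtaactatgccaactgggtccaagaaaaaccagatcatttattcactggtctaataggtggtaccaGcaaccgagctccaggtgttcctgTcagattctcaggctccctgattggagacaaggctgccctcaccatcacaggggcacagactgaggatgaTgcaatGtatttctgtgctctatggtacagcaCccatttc
Igkv10-96: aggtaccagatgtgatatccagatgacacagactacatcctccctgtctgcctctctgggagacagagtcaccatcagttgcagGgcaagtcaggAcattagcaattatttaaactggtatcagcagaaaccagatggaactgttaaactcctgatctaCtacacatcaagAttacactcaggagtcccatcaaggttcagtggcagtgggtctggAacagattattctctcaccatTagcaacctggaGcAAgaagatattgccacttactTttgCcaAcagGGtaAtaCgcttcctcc
Igkv10-94: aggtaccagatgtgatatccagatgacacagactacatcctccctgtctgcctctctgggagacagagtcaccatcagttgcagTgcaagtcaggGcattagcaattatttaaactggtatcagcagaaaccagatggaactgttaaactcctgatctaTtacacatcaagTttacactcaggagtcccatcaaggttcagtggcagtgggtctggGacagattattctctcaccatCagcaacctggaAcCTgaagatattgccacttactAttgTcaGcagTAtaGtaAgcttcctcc
Igkv20-101-2: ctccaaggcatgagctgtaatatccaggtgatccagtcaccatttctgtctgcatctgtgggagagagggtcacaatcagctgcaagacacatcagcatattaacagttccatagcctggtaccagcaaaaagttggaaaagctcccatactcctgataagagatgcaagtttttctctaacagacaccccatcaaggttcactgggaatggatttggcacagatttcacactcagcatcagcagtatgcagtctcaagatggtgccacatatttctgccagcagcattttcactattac

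V gene RNA was concentrated in B cells. Summed over the 46 genes it reached 962.01 CPM in B cells (945 to 979, exact 95% Poisson interval) and 1.73 CPM in other leukocytes (1.47 to 2.04). These intervals, like those on shares of cells below, cover counting error only, and the counts may not be independent molecules. A B cell held a median of 53 V counts and at most 421. At least 1 V count was found in 150 of 169 B cells (88.8%, 83.0 to 93.1) and in 87 of 664 other leukocytes (13.1%, 10.6 to 15.9). With every cell thinned to 25000 counts the shares were 85.8% of B cells and 4.52% of other leukocytes.

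With 1 CPM added to both, 40 of the 46 V genes were at least 2 times higher in B cells than in other leukocytes, beside 9.44% of all 31192 genes. Of the 40 V genes with at least 50 counts 39 were higher, beside 15.5% of all 18243 genes with that many. Most V genes reached 50 counts through B cells, and most met the minimum of 5 cells through B cells too. These counts of higher genes therefore support nothing further. With 10 CPM added, 29 of these 40 were higher, beside 5.32%. The 6 genes that were not higher were Ighv1-55, Ighv1-59, Ighv1-61 and Ighv1-62-3, with under 2 counts in B cells each, Ighv1-69, and Igkv20-101-2 at 0.653 CPM in B cells and 0.547 CPM in other leukocytes. Kappa genes supplied 89.0% of the V counts in B cells, at 857 CPM, against 1.25 CPM in other leukocytes. Lambda genes supplied 7.76%, at 74.7 CPM in B cells and 0.0466 CPM in other leukocytes. Heavy chain genes supplied 3.19%, at 30.7 CPM in B cells and 0.440 CPM in other leukocytes, a share taken over only 10 heavy chain V genes. For scale, the heavy chain constant gene Ighm stood at 2021 CPM in B cells and 64.1 CPM in other leukocytes.

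In most B cells 1 of the light chain V genes counted here was dominant. A second gene that is not analysed here would not be seen, so the shares below hold for the counted genes only. A gene was called dominant when it had at least 10 counts and at least 80% of the light chain V counts of the cell, and 110 of 169 B cells had such a gene (65.1%, 57.4 to 72.2). In another 19 cells (11.2%, 6.91 to 17.0) a second gene had at least 10 counts and at least 20%. The top gene had 10 counts but neither rule was met in 3 cells, 16 cells had fewer than 10 counts for any gene, and 21 had no light chain V count. Over the 132 cells with a top gene of at least 10 counts, the top gene held a median of 99.1% of the light chain V counts (quartiles 88.4 and 100, lowest 40.9), and it held at least 95% in 87 of them. At least 10 counts were reached by 1 light chain V gene in 102 B cells, by 2 in 27 and by 3 in 3.

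**Figure D1:**
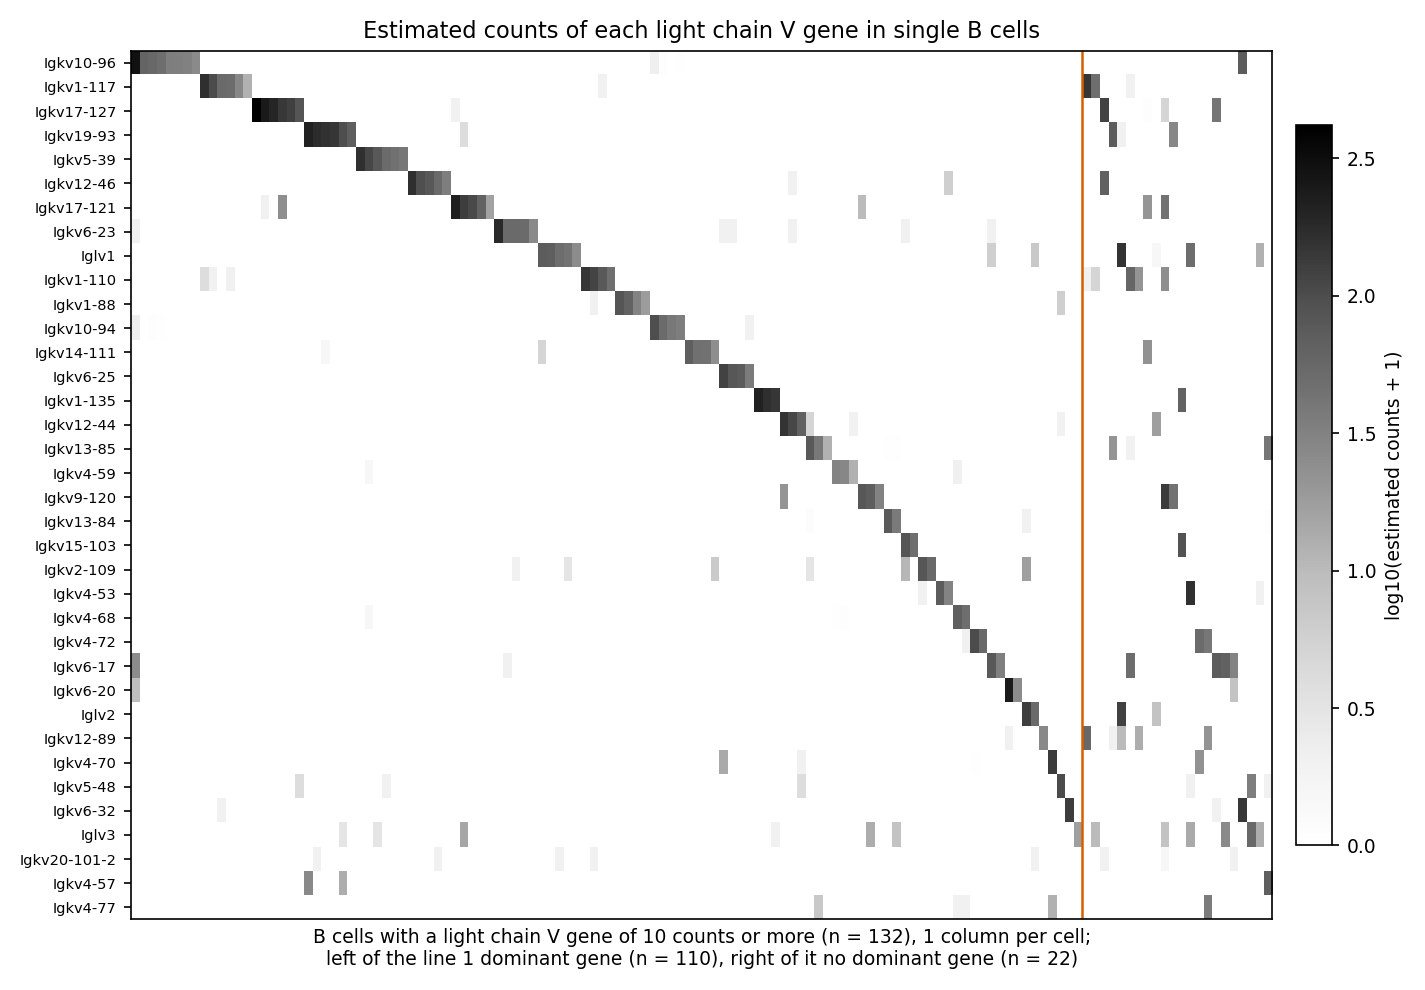
Heat map of estimated counts, as log10(counts + 1), of 36 light chain V genes (down the page, by number of cells where they were dominant) in the 132 B cells with a light chain V gene of at least 10 counts (1 column per cell). Left of the line, 110 cells form a diagonal with 1 dark entry per column; right of it, 22 cells have no dominant gene and most have a pair of dark entries.

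Most of the 37 B cells without a light chain V gene of 10 counts still carried light chain constant RNA. Igkc had a median of 25.5 counts in them and a median of 48.9 in the 102 cells with a dominant Igkv gene. At least 10 Igkc counts were present in 25 of the 37 cells and in 101 of the 102, against 0 of 664 other leukocytes, where any Igkc count was present in 310. The 21 cells with no light chain V count had median depth 65799, close to the 68699 of cells with a dominant gene. Light chain V genes that are not analysed here could not be counted in these cells, and their part was not tested.

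No single gene prevailed across cells. The 110 dominant calls fell on 33 of the 36 light chain V genes, 30 Igkv and 3 Iglv. Igkv10-96 was dominant in 8 cells (7.27%, 3.19 to 13.8). Igkv1-117, Igkv17-127, Igkv19-93 and Igkv5-39 were dominant in 6 cells each, and the 5 leading genes together covered 32 cells (29.1%, 20.8 to 38.5). Igkv12-46, Igkv17-121, Igkv6-23 and Iglv1 followed with 5 cells each. The intervals of neighbouring genes in this order overlap, so their rank is not resolved. Another 19 genes were dominant in 2 to 4 cells and 5 in 1 cell, and Igkv20-101-2, Igkv4-57 and Igkv4-77 were dominant in none. Grouped by family, Igkv1 led with 17 cells over 4 genes, followed by Igkv6 with 14 over 5 genes, Igkv10 with 12 over 2, Igkv17 with 11 over 2 and Igkv4 with 10 over 7.

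**Figure D2:**
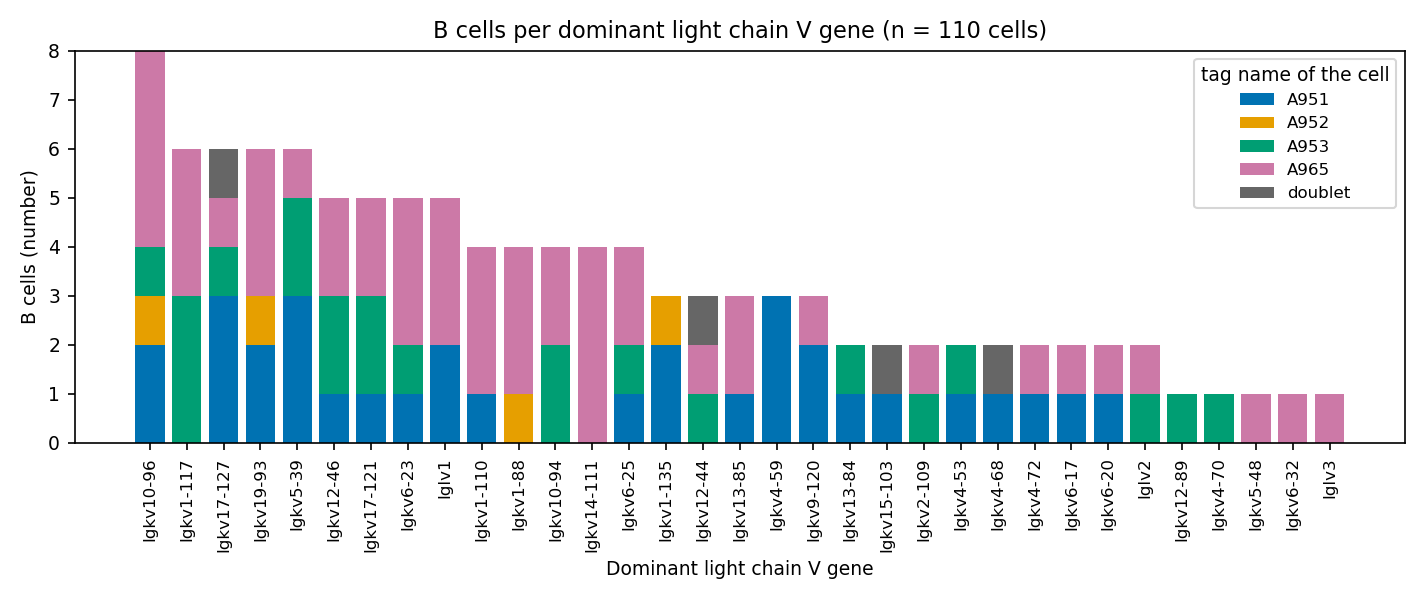
Number of B cells per dominant light chain V gene, for 110 cells, stacked by the tag name of the cell. Igkv10-96 reaches 8 cells from 4 tags, 9 genes reach at least 5 cells, and 5 genes have 1 cell.

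The cells that share a dominant gene differed widely in its counts, which are not scaled for depth. In the 8 cells with dominant Igkv10-96 its counts were 25, 31, 32, 33, 48.0, 54.9, 59 and 288. The 7 lower cells gave it 99.8% to 100% of their light chain V counts and lay in the B cell-like cluster. The cell with 288 counts gave it 89.2%, carried 24.1 counts of Igkv6-17 as well and lay in a monocyte-like cluster. It held 334421 counts in total, against a median of 67914 among B cells. Scaled for depth, Igkv10-96 ran from 391 to 1174 CPM over the 8 cells.

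Igkv17-127 had the highest summed level of any V gene, 105 CPM in B cells and 0.142 CPM in other leukocytes. Its 6 dominant cells held 83.4, 122, 138, 192, 247 and 418 counts, all above the median of 65.5 for the top gene over the 132 cells. The cell with 418 counts also had the highest CPM of the 6, at 6083. In the cell with 138 counts, which the authors named doublet, the close relative Igkv17-121 added 23 counts. Igkv19-93 also ran high, with 68, 98, 146, 155, 170 and 208 counts in its 6 cells. In its cells with 98 and 208 counts, Igkv4-57 added 12 and 26 counts. Igkv1-117, by contrast, spanned 11 to 165 counts with a median of 51 over 6 cells, and Igkv5-39 spanned 38 to 162 with a median of 64.5.

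Kappa genes gave 102 of the 110 dominant calls (92.7%, 86.2 to 96.8) and lambda genes 8. Since all 3 Iglv genes but only 33 Igkv genes were counted, cells with a kappa gene that is not analysed here are missing from this share. Iglv1 was dominant in 5 cells with 23.8, 42, 48.8, 67.6 and 71.0 counts. Iglv2 was dominant in 2 cells with 52.5 and 125 counts, and Iglv3 in 1 cell with 16 counts. Iglv3 was above 0 in 13 B cells. In 2 cells without a dominant gene it was the top gene, with 55 counts beside 33 of Igkv5-48 in 1 and 11.99 counts beside 10.9 of Iglv1 in the other.

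The constant genes, which the choice of V genes did not use, followed the V chain. All 102 cells with a dominant Igkv gene had at least 4 Igkc counts, with a median of 48.9. The 8 cells with a dominant Iglv gene held 98.7, 25.7, 10.5 and 3.49 Igkc counts in 4 cells and 0 in the others. In all 8 of these cells the sum of Iglc1 to Iglc3 exceeded Igkc, with 68.0 to 669 lambda constant counts. Lambda constant RNA did not separate the chains in the other direction: its sum had a median of 48.9 counts in the cells with a dominant Igkv gene and was below Igkc in 51 of 102. Iglc2 alone was above 0 in 77 of those 102 cells, with a median of 31.4 counts and a highest value of 634. Its source in them was not tested.

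Within lambda, Iglc1 followed Iglv1. In mice Iglv1 is known to join mainly to Iglc1 or Iglc3, and Iglv2 and Iglv3 mainly to Iglc2. The 5 cells with dominant Iglv1 held 68.0, 115, 162, 202 and 278 Iglc1 counts, and in the same order of cells 0, 212, 0, 4.5 and 298 Iglc2 counts. The 2 cells with dominant Iglv2 held 604 and 225 Iglc2 counts, with 0 and 13.4 counts of Iglc1. The cell with dominant Iglv3 held 287 Iglc2 counts and 0 of Iglc1. Iglc1 was thus high in every cell with dominant Iglv1 and low or at 0 in the other 3, while Iglc2 was high in those 3 and in 2 of the 5. Over the 102 cells with a dominant Igkv gene, light chain V counts and Igkc counts had a Spearman correlation of 0.66, and for light chain V counts with total counts it was 0.29. The cells share a library, and the values describe it.

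**Figure D3:**
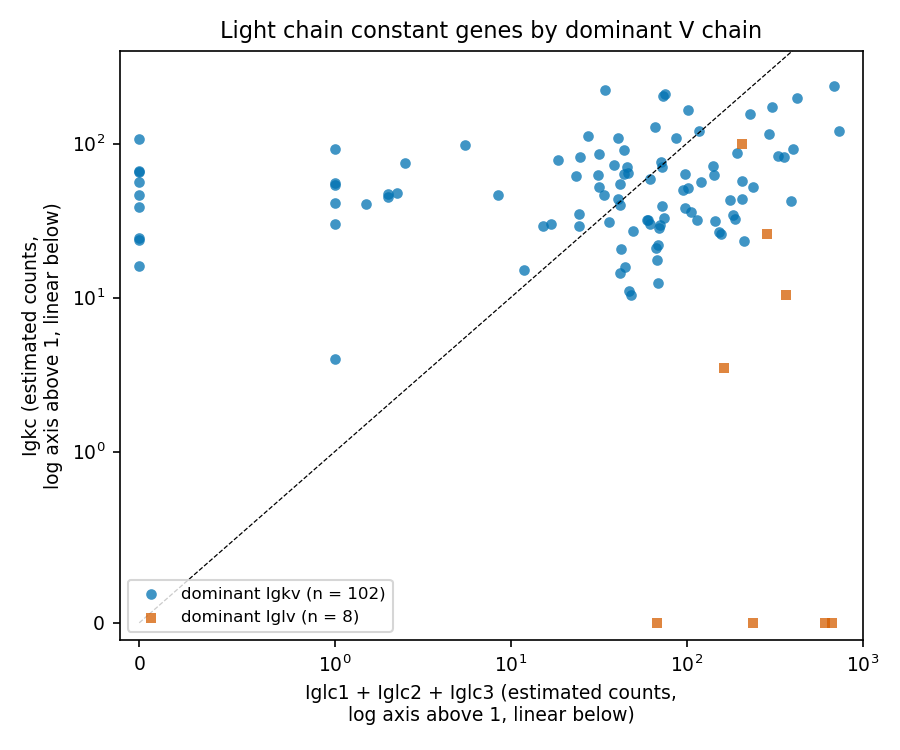
Igkc against the sum of Iglc1 to Iglc3, in estimated counts (axes logarithmic above 1 and linear below), for the 110 B cells with a dominant light chain V gene; the dashed line marks equal values. The 102 cells with a dominant Igkv gene all lie at 4 or more Igkc counts and on both sides of the line, and the 8 cells with a dominant Iglv gene all lie to its right.

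In 19 B cells a second light chain V gene had at least 10 counts and at least 20% of the light chain V counts. The pair was made of Igkv genes in 14 cells, of an Igkv and an Iglv gene in 3 and of Iglv genes in 2. All 19 pairs differed, and only 2 joined genes of the same family, read from the symbol before the hyphen. By this rule each Iglv gene is a family of its own, although Iglv1 and Iglv2 share 96.9% of bases. The most even pair was Igkv14-111 with 21 counts and Igkv17-121 with 19.9, and the least even by share was Igkv9-120 with 131 counts and Igkv17-121 with 43, where the second gene held 20.6%. The highest second gene was Iglv2 with 119 counts beside 154 of Iglv1. Among the other large pairs, Igkv6-32 had 142 counts beside 72 of Igkv10-96, and Igkv1-117 had 144 beside 55 of Igkv12-89. Igkv4-77, the annotated pseudogene, reached its highest value as the second gene in such a cell, with 35 counts beside 38 of Igkv4-72.

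These 19 cells were close to the cells with 1 dominant gene in depth and in the share of the leading hashtag. Their median depth was 67914 counts, against 68699 in the 110 cells with a dominant gene, and the leading hashtag held a median of 85.2% of the tag counts, against 84.5%. The authors' tag call named 1 of the 19 and 4 of the 110 doublet. The 19 cells had a median of 3826 genes above 0, against 3383.5 in the 110, and a median of 107 light chain V counts, against 67.8. Of the 19, 17 lay in the B cell-like cluster and 2 in the macrophage-like cluster, beside 105 of the 110 in the B cell-like cluster. Whether a cell with a second gene was a single cell or a pair of cells was not tested. The share of the leading hashtag cannot show a pair of cells with the same hashtag.

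**Figure D4:**
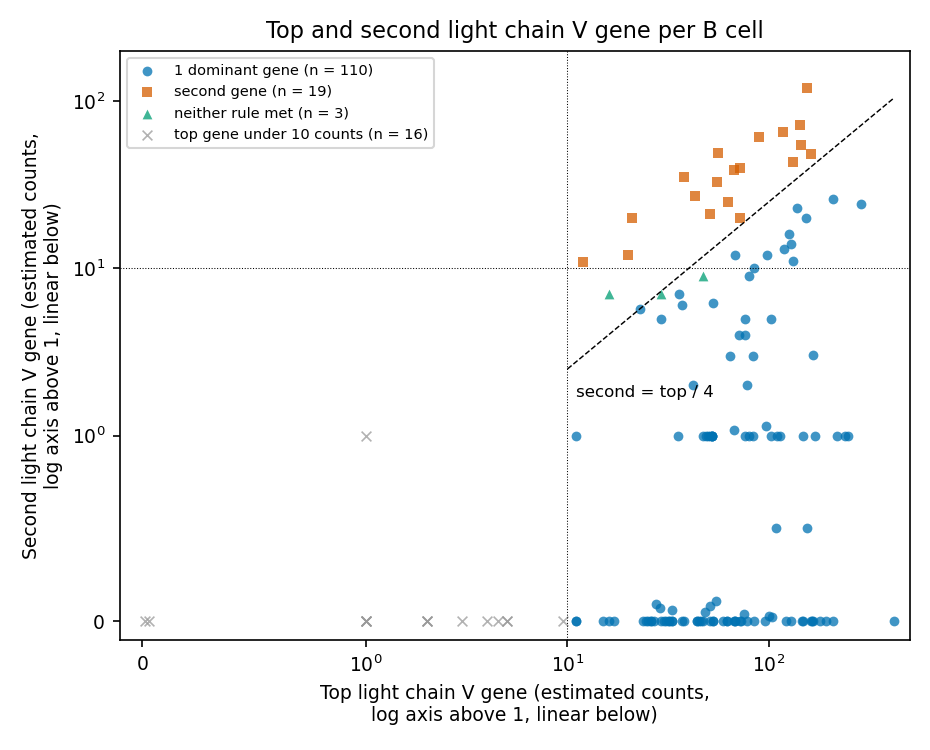
Counts of the top (x axis) and second (y axis) light chain V gene in each B cell with any light chain V count, on axes that are logarithmic above 1 and linear below; the dashed line marks a second gene with 1 count for every 4 of the top gene. The 110 cells with a dominant gene lie at or near 0 or up to about the line, and the 19 cells with a second gene lie above it, from 10.9 to 119 counts.

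Small amounts of other V genes were more frequent in B cells than in other leukocytes. Outside the family of the dominant gene, and without Igkv20-101-2, at least 1 light chain V count was present in 32 of the 110 B cells with a dominant gene (29.1%, 20.8 to 38.5), against 47 of 664 other leukocytes with any light chain V count (7.08%, 5.25 to 9.30). The summed levels were 28.2 CPM (24.8 to 32.0) in those B cells and 0.747 CPM (0.575 to 0.954) in other leukocytes. Thinned to 25000 counts, the shares were 20% (12.98 to 28.7) in those B cells and 2.26% (1.27 to 3.70) in other leukocytes. The highest such sum in a cell with a dominant gene was 33.5 counts. Iglv1 and Iglv2 counted as separate families here, so 6.22 counts of Iglv1 in a cell with dominant Iglv2 are included.

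Heavy chain V genes were counted for 10 genes and found in few cells. Any Ighv count was present in 24 of 169 B cells, and 11 cells had a dominant Ighv gene (6.51%, 3.29 to 11.3). Ighv3-6 was dominant in 4 cells with 13.9, 15.5, 25 and 53.9 counts. Ighv1-64 was dominant in 2 cells with 19.8 and 34 counts, Ighv1-50 in 2 with 23 and 46.5, Ighv9-3 in 2 with 25 and 65.9, and Ighv1-52 in 1 with 36.5. The dominant gene held 98.6% to 100% of the counts of these 10 genes in all 11 cells. Heavy chain V genes that are not analysed here would not be seen. A second Ighv gene of at least 10 counts and 20% was found in 0 of these 11 cells, which allows a share of up to 28.5% of such cells, and the other B cells had no Ighv gene of 10 counts.

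The other heavy chain counts were low whole numbers or fractions. In cells with a single Ighv gene below 10 counts, Ighv3-6 had 1 to 3 counts in 4 cells and Ighv9-3 had 2 to 7 in 3 cells. In 5 B cells 7 or 8 Ighv1 genes were above 0 at once. In the cell with 46.5 counts of Ighv1-50 another 6 Ighv1 genes held the rest of 47 counts, and in 1 B cell 7 Ighv1 genes held 0.143 counts each. Ighv1-55, Ighv1-59, Ighv1-61 and Ighv1-62-3 summed to 1.37, 0.566, 0.614 and 0.514 counts in all B cells, and 1 whole count of Ighv1-55 was the only Ighv count of its cell. These 4 genes are close copies of others in the group, with nearest relatives 95.4% to 99.1% identical, and are reported as uncertain. Of the 11 cells with a dominant heavy chain gene, 7 also had a dominant light chain gene, and the 7 heavy and light pairs all differed. Ighv3-6 was paired with Igkv4-68, Igkv10-96 and Igkv4-59 in 3 cells, Ighv1-50 with Igkv12-44 and Igkv13-84, Ighv1-64 with Igkv1-110 and Ighv9-3 with Igkv2-109. No pair recurred among these 7 cells.

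Lists of genes for the receptor class and for B cell stages were set between B cells and other leukocytes, which describes levels and assigns no stage. Among all 18243 genes with at least 50 counts, 15.5% were at least 2 times higher in B cells and 16.1% at least 2 times lower. Of the 9 constant genes of the table, counted without a minimum of counts, 7 were at least 2 times higher in B cells. The share of all 31192 genes without that minimum was 9.44%. Ighg1 and Igha, with fewer than 5 counts each, were not higher. Of the 6 constant genes with at least 50 counts, 6 were higher. The lists that follow were counted over genes with at least 50 counts. Ighm stood at 2021 CPM in B cells and 64.1 CPM in other leukocytes, and Ighd stood at 708 CPM in B cells and 0.966 CPM in other leukocytes. Ighg2b, an IgG gene, stood at 3.15 CPM in B cells and 0.0349 CPM in other leukocytes and was above 0 in 3 B cells. Of 7 follicular genes, 6 were at least 2 times higher in B cells, among them the IgE receptor Fcer2a (266 CPM in B cells, 0.299 CPM in other leukocytes) and the homing receptor Ccr7 (503 CPM in B cells, 60.9 CPM in other leukocytes). Of 7 germinal centre genes, 0 were higher and 4 were lower, and the lower ones were S1pr2, Gcsam, Fas and Mki67. The death receptor Fas stood at 6.92 CPM in B cells and 46.4 CPM in other leukocytes, and the proliferation marker Mki67 at 0.154 CPM in B cells and 13.8 CPM in other leukocytes. Of 7 plasma cell genes, 3 were higher and 3 lower. The higher ones were Irf4 (82.3 CPM in B cells, 4.91 CPM in other leukocytes), Mzb1 (31.0 CPM in B cells, 0.132 CPM in other leukocytes) and Jchain, which links antibody polymers. Mzb1 was above 0 in 93 B cells and Irf4 in 53, while Jchain was above 0 in only 1. The lower ones were Xbp1, Prdm1 and Derl3. Of 3 recombination and precursor genes with enough counts, Vpreb3 was higher (178 CPM in B cells, 0.199 CPM in other leukocytes), while Dntt and Il7r were lower; the recombinase genes Rag1 and Rag2 were below 50 counts. Of 8 B-1 genes, 2 were higher and 4 lower, and of 6 marginal zone genes 5 were higher and 0 lower. The lists overlap, so their counts are not separate. Mzb1 is in the plasma cell and marginal zone lists, Cr2 in the follicular and marginal zone lists, and Ighd in the constant and follicular lists.

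In other leukocytes V counts were few and mostly single. Without Igkv20-101-2, 45 genes summed to 102 counts in 664 cells, or 1.19 CPM (0.968 to 1.44), against 961.4 CPM in B cells, and 15 of the 45 genes had 0 counts in them. At least 1 count was present in 149 of 169 B cells (88.2%, 82.3 to 92.6) and in 51 of 664 other leukocytes (7.68%, 5.77 to 9.98). Igkv17-127, highest in B cells, had the most counts of these 45 among the light chain genes there, with 12.2 counts in 6 cells. Across the 45 genes, counts in B cells and in other leukocytes had a Spearman correlation of 0.41, which describes this library. As a share of the B cell level, other leukocytes held 0.0818% for the Igkv genes without Igkv20-101-2, 0.0623% for Iglv and 1.43% for Ighv. Of the 37.8 Ighv counts in other leukocytes, 32.8 lay in 2 neutrophil-like cells, and without these 2 cells, left out after seeing the data, the Ighv share was 0.190%. The same share was 0.435% for Igkc, 0.108% for Cd79a, which the rule itself used, and 3.17% for Ighm.

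By class, the 45 genes stood at 2.87 CPM in neutrophil-like cells (2.15 to 3.76), 1.87 CPM in the unnamed cluster (0.510 to 4.79), 1.496 CPM in T cell-like cells (0.828 to 2.49) and 1.02 CPM in NK cell-like cells (0.124 to 3.69). They stood at 0.827 CPM in conventional dendritic-like cells (0.341 to 1.68), 0.538 CPM in macrophage-like cells (0.216 to 1.11) and 0.462 CPM in monocyte-like cells (0.257 to 0.767). Neutrophil-like cells lay above the intervals of the last 3 classes, and 32.8 of their 52.5 counts came from 2 cells with Ighv genes. Median depth differed among the classes, from 56570 counts in the unnamed cluster and 64565 in neutrophil-like cells to 271154 in macrophage-like cells.

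**Figure D5:**
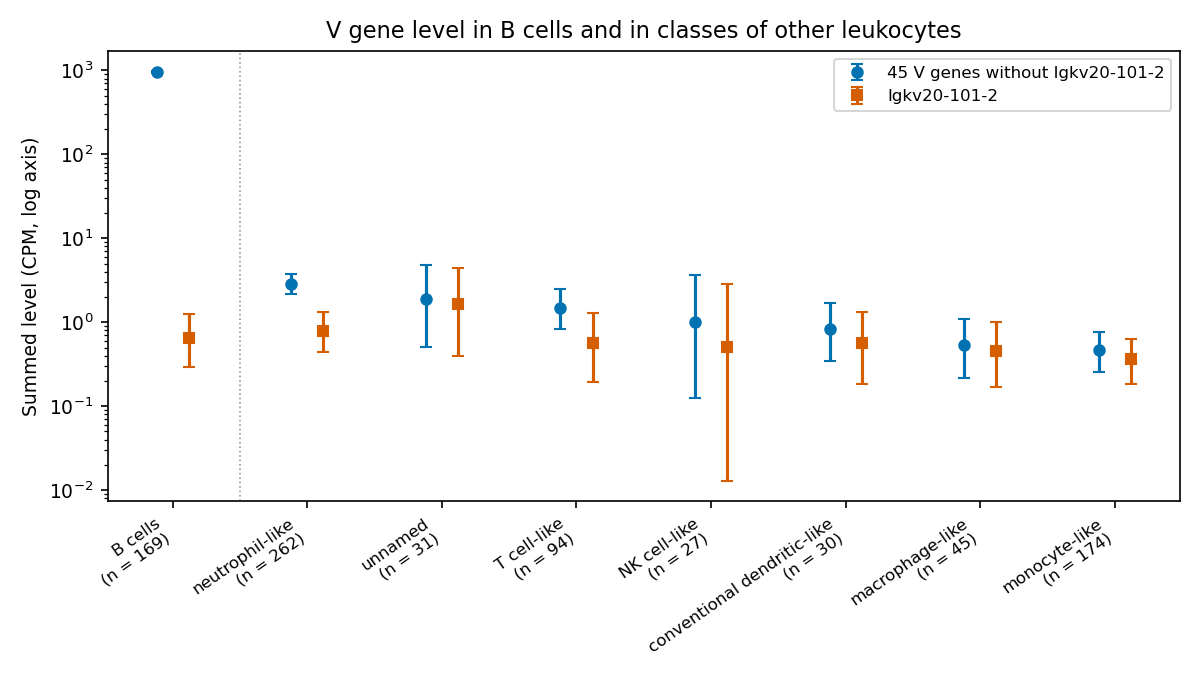
Summed level in CPM (log axis) of 45 V genes (circles) and of Igkv20-101-2 alone (squares) in B cells and in 7 classes of other leukocytes, with exact 95% Poisson intervals; 1 further cell of the B cell-like cluster that missed the Cd79a rule is left out. The 45 genes reach 961.4 CPM in B cells and 0.462 to 2.87 CPM in the other classes, while Igkv20-101-2 lies between 0.362 and 1.64 CPM in all of them.

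Igkv20-101-2 made up 47 of the 149 V counts in other leukocytes. It was found in 9 of 169 B cells (5.33%, 2.46 to 9.87) and in 46 of 664 other leukocytes (6.93%, 5.12 to 9.13), at 0.653 CPM in B cells (0.291 to 1.26) and 0.547 CPM in other leukocytes (0.402 to 0.728). No B cell or other leukocyte held more than 2 counts, and it was never dominant. Its level was 0.792 CPM in neutrophil-like, 0.567 CPM in T cell-like and 0.362 CPM in monocyte-like cells, with overlapping intervals, so no class stood apart at this depth. Of its 55 values, 90.9% were whole numbers.

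Among the 664 other leukocytes 2 had a dominant V gene (0.301%, 0.0365 to 1.08), and both were neutrophil-like cells named A951. The cell with 21.8 counts of Ighv1-64 had 2070 counts of the neutrophil gene S100a8, 130 counts of Ighm and 0 of Cd79a and Igkc. The cell with 11 counts of Ighv1-69 had 18 counts of S100a8 among 79901 in total, and 0 of Ighm, Cd79a and Igkc. For scale, S100a8 stood at 208 CPM in B cells and 9950 CPM in other leukocytes. Ighv1-69 was nearly absent from B cells, where its fractions summed to 0.369 counts over 5 cells, beside 11 counts in other leukocytes. Only 5 more other leukocytes held at least 3 V counts: a T cell-like cell with 8 counts of Igkv17-127, neutrophil-like cells with 5 counts of Igkv13-85 and 3 of Ighv1-64, a conventional dendritic-like cell with 3 counts of Igkv10-94 and a macrophage-like cell with 2 counts each of Igkv1-135 and Igkv20-101-2.

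Cells named by each hashtag call had a dominant light chain V gene in 57.1% to 80% of B cells. The numbers were 32 of 50 for A951, 4 of 7 for A952, 22 of 34 for A953, 48 of 73 for A965 and 4 of 5 for cells named doublet. The summed V level in B cells was 868, 662, 1110, 940 and 1993 CPM in the same order, and the highest value came from the 5 B cells named doublet. Igkv10-96 was dominant in cells of all 4 hashtags, and Igkv17-127 in cells named A951, A953, A965 and doublet. The 3 cells of Igkv4-59 were all named A951 and the 4 of Igkv14-111 all A965. These names describe cells and stand for no known fraction or animal.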

How the data were processed

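The transcriptome values, as the authors deposited them, are estimated counts for each gene in each cell without normalization; 69.4% of the V gene values above 0 and 69.7% of all values above 0 are whole numbers. The deposited hashtag values are whole counts of each tag on each barcode, and served only for the share of the leading tag. The submitters' processing notes name STAR, STARsolo 2.7.10b, cutadapt 4.1, R 4.3.1 and build GRCm39, in roles that are not stated. No source used here says whether molecules or reads were counted.

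Cells with at least 500 counts, 200 genes and at most 25% mitochondrial counts were kept (857 of 878). Library totals ran from 28407 to 706332 counts per kept cell. Classes came from Leiden clustering (scanpy 1.11.5) without immunoglobulin genes. CPM are summed counts over summed totals, with exact Poisson intervals, and shares have exact Clopper-Pearson intervals, both at 95%. All 857 kept cells matched a barcode of the hashtag table. No doublet caller was run, and the authors' tag calls were used as given. Sequences came from GENCODE M21, whose coordinates are of another build and are not printed. Results that need some items, among them 1 alternative definition of other leukocytes, are not reported here. The calculations were tested on simulated data. Genes named in the text were the most often dominant Ighv and Igkv genes, every Iglv gene, the 5 V genes with the most counts in other leukocytes and the pairs; others were named after their values were seen. The genes, lists and thresholds were chosen with earlier results of these data known.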

Additional observations from a re-analysis of the deposited data

Results flagged for a closer look

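The 24 kept cells with 0 counts of Ptprc and less than 50 CPM of Cd79a belong to neither group of the comparison, and their V counts are given because they exceeded the 3 counts that a count of 0 allows. They summed to 46.6 V counts in 5 cells. A single neutrophil-like cell named A952 held 38.8 of these, 22.8 of Ighv1-64 and 15 of Ighv1-69, with 0 counts of Cd79a, Igkc and Ighm. That cell had 10 counts of S100a8 among 43488 in total. Another neutrophil-like cell, named A951, held 4.83 counts of Ighv1-64. The other 22 cells together held 3 counts. Together with the 2 neutrophil-like leukocytes that had a dominant V gene, all 3 kept cells outside the B cells whose top V gene had at least 10 counts carried Ighv1-64 or Ighv1-69. The 2 genes share 92.9% of coding bases.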

How the results depend on the processing

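Of 155 alternative values, 130 stayed within the 95% interval of the main value or, for numbers of genes, within 1.5 times the main number, and 25 moved. The summed V level in B cells was 830 CPM with a Cd79a limit of 20 CPM, 983 CPM with 200 CPM, 937 CPM without cells named doublet, 1034 CPM with each cell weighted alike and 1219.5 CPM with only whole numbers kept. In other leukocytes it was 2.24 CPM with only whole numbers, 2.44 CPM with cells weighted alike and 1.19 CPM without Igkv20-101-2, an alternative chosen after seeing the data. The share of other leukocytes with a V count was 4.52% after thinning, 1.05% at 3 counts or more and 7.68% without Igkv20-101-2. The share of B cells with a dominant light chain gene was 55% at 20 CPM of Cd79a, 52.1% with whole numbers only, 42.6% with at least 50 counts for the top gene, 55.6% after thinning, 77.5% with dominance at 50% and 51.5% at 95%. The share with a dominant Ighv gene was 2.37% with whole numbers only, 1.18% at 50 counts, 3.55% after thinning and 10.1% at 3 counts. The number of dominant Ighv genes was 2 at 50 counts and 3 by family, the number of dominant Igkv genes was 13 by family, and the most used family held 15.9%. Other leukocytes with a dominant V gene numbered 0 of 664 (up to 0.554%) at 50 counts and after thinning, and 6 (0.904%) at 3 counts. Fewer cells or genes enter under the stricter limits by construction. Keeping only whole numbers also lowered the totals by which counts are scaled. V counts under that setting were 8998 in B cells, against 12521 in the main setting, and 118 in other leukocytes, against 149. Both CPM values were nevertheless higher. With a Cd79a limit of 20 CPM, 110 cells had a dominant light chain gene, as in the main setting. They were counted among 200 cells, against 169 in the main setting. The 31 added cells held 4 V counts, and 0 of them lay in the B cell-like cluster. The cause of the remaining changes was not tested. No paired analysis was possible because there was 1 transcriptome library and no test. Depth limits low V genes: 1 count is near the level of most values outside B cells.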

Other observations

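Of the 21 cells left out for over 25% mitochondrial counts, 4 held V counts, 4 in all. The joining (J) segment genes of the table gave small sums: Iglj1, Iglj2 and Iglj3 had 84.5, 98.7 and 152 counts in B cells, against 0.333, 7.71 and 5.55 counts in other leukocytes, and Ighj4, the highest heavy chain J gene, had 12.9 counts over 33 B cells and 0 in other leukocytes. Kappa J genes were lower still, Igkj1 leading with 2.61 counts in B cells and 2.17 counts in other leukocytes. Relative to the direction of Igkc in the GENCODE annotation, 13 of the 33 Igkv genes lie on the same strand and 20 on the other. They were dominant in 43 and 59 B cells. Of all 160 annotated kappa V genes, 75 lie on the same strand and 85 on the other. Split at the middle of the 160 annotated genes, the 14 Igkv genes nearer Igkc by order were dominant in 37 cells and the 19 farther ones in 65.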
